A study of Gossypium barbadense and Gossypium hirsutum with 4 samples.

Results

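Of 16800 Gossypium hirsutum probe sets on the cotton array (ID prefixes Ghi and GhiAffx), 226 were bright on every array and close in signal between the fibres of both cotton genotypes. They were chosen by their measured values: a log2 signal above the midpoint of 13 and 14 on all 4 arrays (11585 on a linear scale), and a difference under 0.3 on the log2 scale (1.23-fold) between the genotype means. They are called the shared bright set below. Because these values chose them, their level and their small differences are given as a description and are not a result. A further 65 probe sets with these prefixes passed the level but not the limit on the difference, so the set holds 77.7% of 291. Of the 226, 200 had the prefix Ghi and 26 the prefix GhiAffx. No table at hand links the IDs to genes, so members go by probe set ID and no marker of fibre or of another tissue could be read. Signal also depends on the probes, so the order of signals among probe sets is not an order of transcript amounts, and "bright" stands here in place of "abundant".

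RNA came from fibre harvested 11 days post-anthesis from untreated glasshouse plants. VH8-4602, a genotype of Gossypium barbadense, and Guazuncho 2, a genotype of Gossypium hirsutum, were each read on 2 one-colour Affymetrix cotton arrays with a biotin label. The labels do not say whether the 2 samples of a genotype came from separate plants, and p-values cover only their own spread, possibly a technical one.

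A cotton fibre is a single cell that grows out of the outer layer of the seed coat. After anthesis it elongates while it lays down a thin primary wall, and later it thickens with a secondary wall of nearly pure cellulose. Elongating fibre is known for high expression of genes for the cytoskeleton, wall loosening, lipid transfer and protein synthesis. Both species are allotetraploid and carry related A and D subgenomes, so many genes occur as closely similar copies, and a probe set can read several of them. Gossypium barbadense is grown for long, fine fibre and Gossypium hirsutum for high yield.

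The control probe sets show where the shared bright set lies on the scale of these arrays. The brightest hybridization control, which reads a bacteriophage cre transcript added to the sample, had log2 signals of 15.33 and 15.30 in VH8-4602, against 15.14 and 15.23 in Guazuncho 2. Above that control on every array were 17 of the 226 members. The highest signal of any probe set without the AFFX prefix was 16.16 and 16.14 for VH8-4602, against 16.16 and 16.13 for Guazuncho 2, so no signal on any array went much past 16. An AFFX control probe set for the 3' end of actin, which builds microfilaments, had 14.33 and 14.31 in VH8-4602 and 14.53 and 14.41 in Guazuncho 2. It met both limits but was left out by its prefix. The control for the middle of actin, at 14.20 and 14.22 in VH8-4602 and 14.50 and 14.37 in Guazuncho 2, met them too. The other 6 cotton controls read under the level on at least 1 array, and 5 of them differed by more than 0.3. The actin 5' control differed by -0.85 (VH8-4602 minus Guazuncho 2), against -0.15 for the 3' end. The 3 controls named ss1 differed by -1.87 (5' end), -1.74 (middle) and -1.03 (3' end). The 2 named ubq11 differed by 0.15 (5' end) and 0.44 (3' end). For actin, ss1 and ubq11 alike the 5' end had the lower value, so the difference depended on the part read, and the reason was not tested. Polyadenylation controls (dap, lys, phe and thr) were higher on VH8-4602 replicate 2 than on replicate 1 for all 36 probe sets, by a median of 0.93. In Guazuncho 2 replicate 2 was the higher for 28 of the 36, with a median of 0.28. The part of these controls in the results below was not tested.

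On each array the members covered nearly the same range. Their log2 signals ran between 13.5011 and 16.12 with a median of 14.28 on VH8-4602 replicate 1, and between 13.5047 and 15.98 with a median of 14.24 on VH8-4602 replicate 2. They ran between 13.5004 and 16.16 with a median of 14.26 on Guazuncho 2 replicate 1, and between 13.52 and 16.07 with a median of 14.28 on Guazuncho 2 replicate 2. By mean signal 155 members lay above 14, 36 above 15 and 9 above 15.5, so most had a mean no higher than 15, below the ceiling near 16. At which signal the scale begins to compress was not tested.

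**Figure D1:**
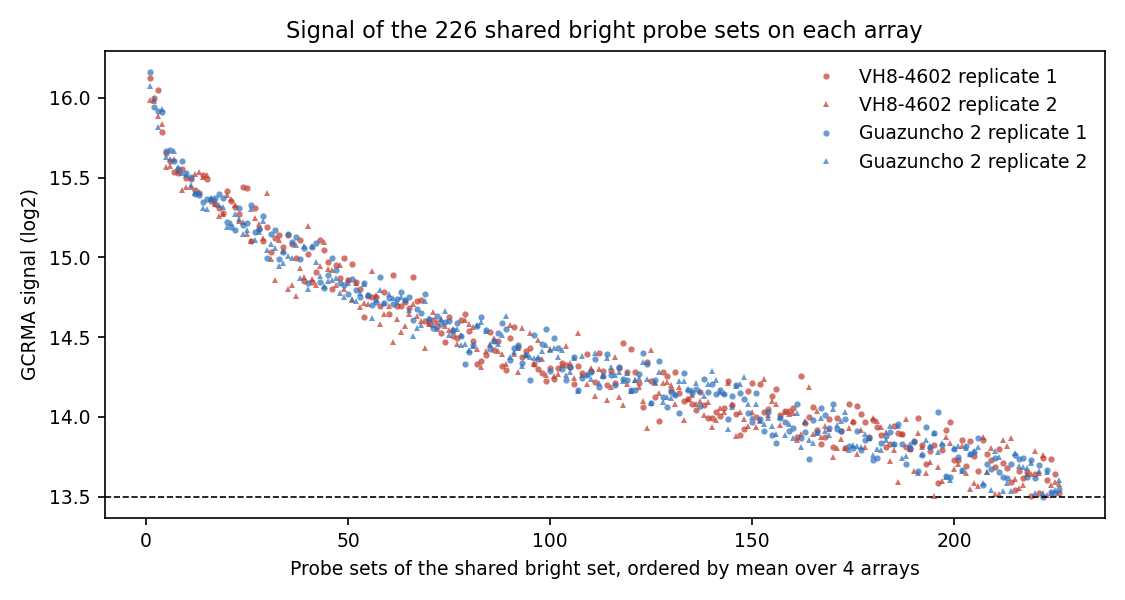
Log2 GCRMA signal of the 226 members of the shared bright set on VH8-4602 replicates 1 and 2 (red) and Guazuncho 2 replicates 1 and 2 (blue), in the order of their mean over the 4 arrays, 1 point per array. The dashed line is the level used to choose them, and the signals end near 16.

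The 2 members with the highest mean stood at the top of the scale in both genotypes. Ghi.5.1.S1_s_at had 16.12 and 15.98 in VH8-4602 and 16.16 and 16.07 in Guazuncho 2. Ghi.6290.1.A1_s_at had 15.998 and 15.978 in VH8-4602 and 15.94 and 15.99 in Guazuncho 2. The arrays of the genotypes overlapped in both. The member with the lowest mean, Ghi.4412.1.S1_s_at, had 13.53 and 13.58 in VH8-4602 and 13.55 and 13.60 in Guazuncho 2, also with overlap.

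The 2 members with the narrowest difference show that equal means can hide unequal replicates. Ghi.10730.1.S1_s_at had 14.79 and 14.64 in VH8-4602 and 14.72 and 14.71 in Guazuncho 2. Ghi.8096.1.S1_x_at had 14.16 and 13.94 in VH8-4602 and 14.02 and 14.08 in Guazuncho 2. In both, the Guazuncho 2 arrays lay between the VH8-4602 arrays. The widest gap between replicates of any member was that of Ghi.3760.1.S1_s_at, which had 14.89 and 14.47 in VH8-4602 and 14.70 and 14.74 in Guazuncho 2.

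At the other end, the 2 members with the widest differences had no overlap between the genotypes. Ghi.6248.1.S1_s_at had 14.001 and 14.185 in VH8-4602 and 13.74 and 13.85 in Guazuncho 2, a difference of 0.30 (SE 0.11, limma adjusted p = 0.0868). Ghi.821.1.S1_at had 14.06 and 14.10 in VH8-4602 and 14.40 and 14.35 in Guazuncho 2, a difference of -0.29 (SE 0.09, limma adjusted p = 0.0499). These p-values belong to the contrast that chose the members and are given as a description. The call of Ghi.821.1.S1_at was lost without any 1 of the 4 arrays, with adjusted p between 0.118 (without Guazuncho 2 replicate 2) and 0.173 (without Guazuncho 2 replicate 1). With all 4 arrays it was lost with quantile normalization (-0.19, adjusted p = 0.136), median centring (-0.21, adjusted p = 0.104), a robust prior (adjusted p = 0.0512) and no moderation (adjusted p = 0.0591).

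The limits of the set cut through a continuous range of values. Just inside the level, the lowest array read 13.5004 for Ghi.8149.1.S1_s_at and 13.5011 for Ghi.4997.1.A1_s_at. Just outside it, the lowest array read 13.4959 for Ghi.5848.1.A1_at and 13.4902 for Ghi.207.1.S1_s_at. Within 0.1 of the level there were 25 probe sets inside and 21 outside. Just outside the limit on the difference were Ghi.8210.1.S1_s_at at 0.3019 and Ghi.4750.1.S1_s_at at -0.3039, and within 0.05 of that limit there were 19 probe sets inside and 14 outside.

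Within the set, whose limit is symmetric about 0, the differences lay on both sides of 0 in similar numbers on the deposited scale. VH8-4602 was the higher genotype in 107 members and the lower in 118, and 1 member, Ghi.10730.1.S1_s_at, had means equal to 4 decimals, with a median difference of -0.01 (log2 scale), against 0.05 for all 12603 probe sets tested. Without VH8-4602 replicate 2 the median was 0.01, with 121 higher and 105 lower. Without VH8-4602 replicate 1 it was -0.02, with 95 higher and 131 lower, so the balance depended on the arrays kept. The median size of a member's difference was 0.11, or 1.08-fold, against 0.37 for all probe sets tested. Both arrays of a genotype lay above both of the other in 156 of the 226 members (69.0%), with VH8-4602 above in 75 and below in 81. Over all probe sets tested this share was 78.4%. In 70 members the genotypes overlapped.

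One member, Ghi.821.1.S1_at, passed the test of VH8-4602 against Guazuncho 2 (limma, Benjamini-Hochberg adjusted p under 0.05 over 12603 probe sets), and it was lower in VH8-4602. Over all probe sets tested 45.9% passed, 25.1% higher and 20.9% lower in VH8-4602. Since the difference was used to choose the members, nothing is read from that contrast. Counts at an unadjusted p are not given, since no share over all probe sets was taken at such a limit. The number past the adjusted test depended on how limma estimated the spread. With a spread that may fall with signal (an intensity trend), 55 members passed, 26 higher and 29 lower in VH8-4602. In that setting 6350 of the 12603 probe sets passed. With no moderation, 10 members passed, 6 higher and 4 lower in VH8-4602, and Ghi.821.1.S1_at was not among them. Of the 12603 probe sets 1875 passed there. Other scalings gave calls in a single direction. With quantile normalization 7 members passed and with median centring 13, all higher in VH8-4602 and without Ghi.821.1.S1_at. With all hybridization controls set equal 41 members passed, all lower. Of all probe sets, 5801, 6147 and 5641 passed in these scalings, in that order.

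A p-value that misses a threshold does not show equal expression. The 95% interval of a member's difference had a median half-width of 0.24 and a widest of 0.43, against a median of 0.29 for all probe sets tested. With differences held under 0.3 by the rule and no half-width above 0.43, every member's interval had to lie inside a 2-fold difference, so nothing is read from that. The interval lay inside 0.5 on the log2 scale in 203 members and inside 0.3 in 65. For the other 161 members these arrays thus do not bound the difference to the limit by which they were chosen. The intervals use the spread of 2 arrays per genotype, and they leave out any error shared by all probe sets of an array.

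**Figure D2:**
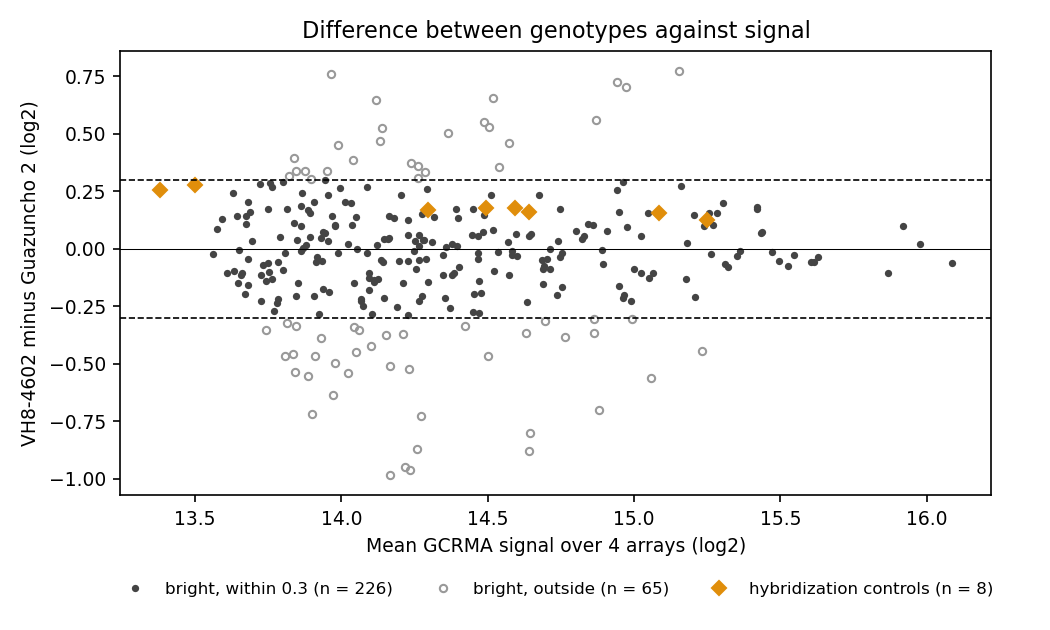
Difference of VH8-4602 minus Guazuncho 2 (log2) against mean signal over the 4 arrays (log2) for the 291 bright Ghi and GhiAffx probe sets and the 8 brightest hybridization controls. Filled points are the 226 members, open points the 65 probe sets outside the limit of 0.3 (dashed lines), and the diamonds, all above 0, are the controls.

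The share of bright probe sets that fell within the limit was highest near the ceiling. Of 91 bright Ghi and GhiAffx probe sets with a mean up to 14, 71 were members (78.0%), and of 101 with a mean of 14 to 14.5, 76 were (75.2%). Of 60 between 14.5 and 15, 43 were members (71.7%), and of 30 between 15 and 15.5, 27 were (90.0%). All 9 above 15.5 were members, and the widest difference among them was 0.11, against 0.76 to 0.99 in the other bins. The 65 probe sets outside the limit were higher in VH8-4602 in 26 cases and lower in 39, with a median size of 0.46 and a largest size of 0.99. Among bright probe sets designed on Gossypium raimondii sequence (prefixes Gra and GraAffx), 24 of 27 lay within the same limit. These shares describe the values that chose the set, and a fall of real differences near the ceiling cannot be told apart from a compressed scale there.

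The hybridization controls, which read transcripts added to the samples, also differed less at higher signal, already well under the ceiling, and the cause was not tested. All 27 control probe sets were higher in VH8-4602, but they read only the transcripts bioB, bioC, bioD and cre. Every bioB probe set had a mean signal up to 10 and every cre probe set one above 13. Signal level thus cannot be told apart from the transcript read. The 12 controls with a mean signal up to 10 differed by a mean of 0.38, the 7 between 10 and 13 by 0.27, and the 8 above 13 by 0.19, with 0.13 for the brightest. The order of these 3 means was the same without any 1 of the arrays, though their size was not: above 13 the mean was 0.13 without Guazuncho 2 replicate 1 and 0.24 without Guazuncho 2 replicate 2. The closeness of the members therefore holds on the deposited scale, on which the controls are not equal. With the 8 bright controls set equal, an alternative chosen after the data were seen, the median difference of the members was -0.20, 204 were lower in VH8-4602, and 172 still lay within 0.3. With all 27 controls set equal, the median was -0.31, 225 were lower and 108 lay within 0.3. Quantile normalization and median centring moved the median to 0.05 and 0.07, with 138 and 156 members higher in VH8-4602, so no direction is given for the set as a whole.

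The gap between replicates was not used by the rule, and it differed between the genotypes in the members. The median gap was 0.07 between the VH8-4602 replicates and 0.04 between the Guazuncho 2 replicates. In the bright probe sets outside the limit these medians were 0.07 and 0.06. The gap exceeded 0.2 in 23 members in VH8-4602 and in 1 member in Guazuncho 2. The VH8-4602 gap was the wider in 150 of the 226 members (66.4%), against 43 of the 65 bright probe sets outside the limit and 50.8% of all probe sets tested, where the medians were 0.12 in VH8-4602 and 0.12 in Guazuncho 2. Replicate 1 lay above replicate 2 in 62.4% of the members in VH8-4602 and 57.5% in Guazuncho 2, against 43.6% and 43.9% of all probe sets tested. Of the 65 bright probe sets outside the limit, it did so in 34 in VH8-4602 and in 42 in Guazuncho 2. Probe sets of an array share its RNA and labelling, so these counts describe 4 arrays and carry no test.

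**Figure D3:**
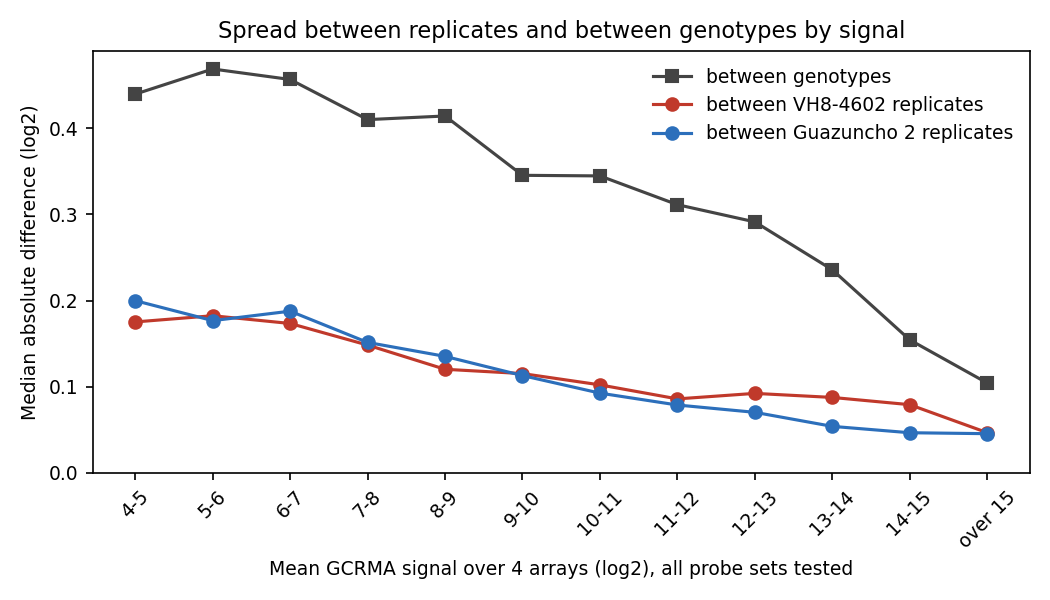
Median absolute difference (log2) between the genotypes (squares), between the VH8-4602 replicates (red) and between the Guazuncho 2 replicates (blue), in bins of mean signal over all 12603 probe sets tested; 197 with a mean of 4 or less are not drawn. The difference between genotypes narrows from 0.44 in the dimmest bin drawn to 0.10 above 15, and between 13 and 15 the VH8-4602 replicates lie farther apart (0.09 and 0.08) than those of Guazuncho 2 (0.05 and 0.05).

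The IDs of the members differ from those of other probe sets in their suffix, which the rule did not use. On Affymetrix arrays the suffix _at marks probes matching a single transcript of the design, _a_at transcripts of 1 gene, _s_at transcripts of several genes or close copies, and _x_at probes of which some also match other sequences. Of the 226 members 152 (67.3%) ended in _s_at, 32 (14.2%) in _x_at, 7 (3.1%) in _a_at and 35 (15.5%) in plain _at. Among all 10675 Ghi and GhiAffx probe sets tested these shares were 42.3%, 7.68%, 1.54% and 48.5%. The bright probe sets outside the limit resembled the members, with 48 of 65 (73.8%) ending in _s_at and 10 (15.4%) in _at. The suffix thus went with brightness in both bright groups. Of the bright probe sets, 35 of 45 ending in _at were within the limit (77.8%) and 152 of 200 ending in _s_at (76.0%). The strand letter S stood in 75.7% of the members, 78.5% of the bright probe sets outside the limit and 71.5% of those tested. The prefix Ghi stood in 88.5%, 92.3% and 59.7% of them, in that order, so neither was particular to the members.

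**Figure D4:**
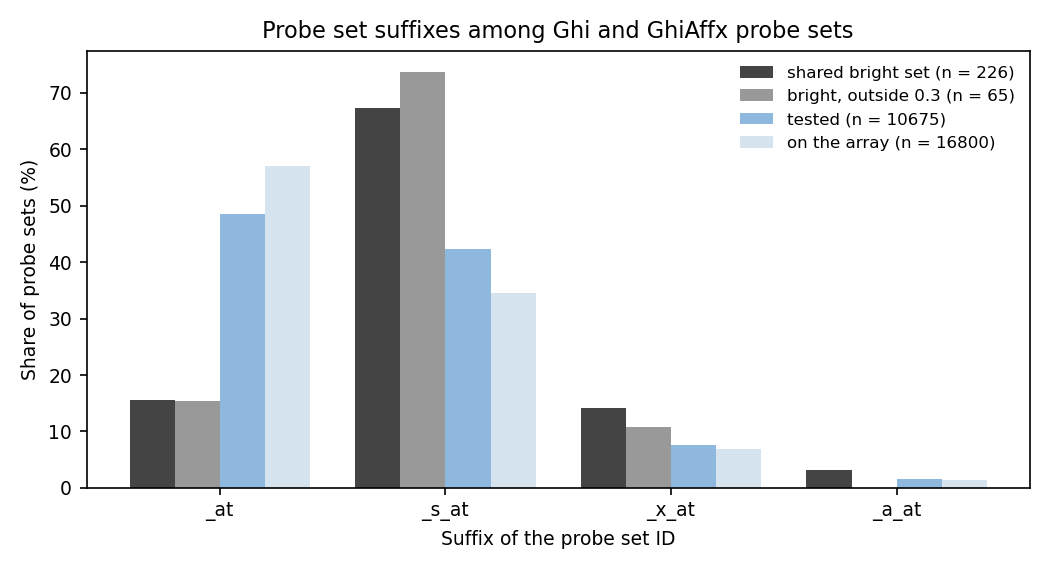
Share of probe sets (%) by ID suffix for the shared bright set, the bright probe sets outside the limit, all Ghi and GhiAffx probe sets tested, and all on the array. The suffix _s_at makes up 67.3% of the shared bright set and 42.3% of those tested, and plain _at 15.5% and 48.5%.

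Some members may read the same transcripts. The number in an ID marks a cluster of similar sequences, and the 226 members carry 212 numbers, of which 154 have no other probe set on the array. In 14 numbers 2 probe sets were members. The differences of such a pair had the same sign in 12 of the 14 and lay a median of 0.08 apart. The pair of Ghi.5, which holds the brightest member, was 1 of the 2 with opposite signs, at -0.06 and 0.06. The other was a pair of GhiAffx.1589, at 0.16 and -0.23, the pair farthest apart. With a single probe set kept per number the set has 212 members.

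Other probe sets with a member's number were not held to the limit of 0.3 by the rule, so they could lie farther apart between the genotypes than the member. Such probe sets, 158 in all, existed for 51 numbers, and 86 of them belonged to 2 very large numbers, GhiAffx.1589 and GhiAffx.3083. Leaving these out, 59 of 72 were tested. The median size of their difference was 0.28, against 0.37 for all probe sets tested and 0.11 for the 55 members of the same numbers. The members' value is held down by the rule, so the contrast with them is a description. Of the 59, 31 (52.5%) lay within 0.3 and 20 passed the test (33.9%), 7 higher and 13 lower in VH8-4602, against the 45.9% of all probe sets tested. In the 2 large numbers 30 of 64 tested passed (46.9%). With no moderation in limma, 8 of the 59 and 9 of the 64 passed, against 1875 of all 12603 probe sets tested.

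In 3 numbers the other probe sets passed the test in both directions while a member read nearly alike in both genotypes: Ghi.1314, GhiAffx.1589 and GhiAffx.3083. These were picked with their values in view. The member Ghi.1314.1.S1_x_at had 15.43 and 15.14 in VH8-4602 and 15.21 and 15.17 in Guazuncho 2. Among the other 3 probe sets of that number, Ghi.1314.2.S1_s_at differed by -0.80, with 14.27 and 14.22 in VH8-4602 and 15.05 and 15.05 in Guazuncho 2 (limma adjusted p = 0.0028). Ghi.1314.3.A1_x_at differed by 0.70, with 15.26 and 15.38 in VH8-4602 and 14.60 and 14.64 in Guazuncho 2 (limma adjusted p = 0.0052). The second call was lost with all hybridization controls set equal (0.41, adjusted p = 0.0574) and with no moderation (adjusted p = 0.0515). Both are as bright as members, and in both the genotypes were well apart, in opposite directions. The dimmer Ghi.1314.4.A1_at differed by 0.66, with 11.42 and 11.50 in VH8-4602 and 10.77 and 10.83 in Guazuncho 2 (limma adjusted p = 0.0055). Its call was lost with all hybridization controls set equal (0.37, adjusted p = 0.073). It carries the strand letter A, as does Ghi.1314.3.A1_x_at, while Ghi.1314.2.S1_s_at and the member carry S.

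The widest contrast outside the 2 large numbers was in Ghi.9312, also picked with its values in view. The member Ghi.9312.2.S1_x_at had 14.28 and 14.23 in VH8-4602 and 14.17 and 14.23 in Guazuncho 2. Ghi.9312.3.A1_x_at, which carries the opposite strand letter, had 9.37 and 9.49 in VH8-4602 and 14.11 and 14.21 in Guazuncho 2, a difference of -4.73 (limma adjusted p = 6.12e-05). Without 1 array at a time it lay between -4.79 and -4.68 and passed each time. The remaining probe set of that number, Ghi.9312.1.A1_s_at, carries the same strand letter as Ghi.9312.3.A1_x_at but differed by only -0.40 (limma adjusted p = 0.0213). It had 8.43 and 8.51 in VH8-4602 and 8.86 and 8.88 in Guazuncho 2. That call was lost with no moderation (adjusted p = 0.0549) and without any 1 array. Close signal in 1 probe set of a number thus did not extend to every other. Whether the probes of such pairs match the same transcript, or match it equally well in each genotype, was not tested.

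**Figure D5:**
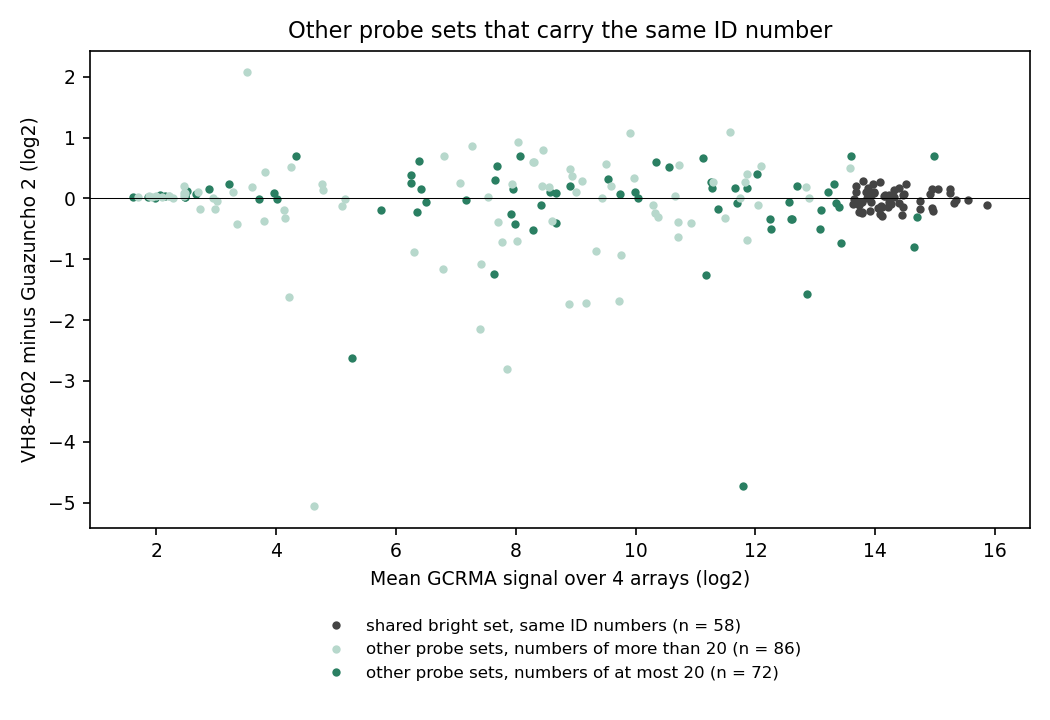
Difference of VH8-4602 minus Guazuncho 2 (log2) against mean signal (log2) for the 58 members whose ID number occurs in further probe sets (black) and for those 158 other probe sets, 72 in numbers of at most 20 probe sets (dark green) and 86 in 2 larger numbers (light green). The members sit within 0.3 of 0 by their choice, while the others reach -5.06 and 2.07.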

How the data were processed

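Fibre RNA of 4 samples, 2 per genotype, was hybridized to 1 Affymetrix cotton array each. The authors deposited a log2 value per probe set and array; the scale was inferred from a range of 1.20 to 16.16, and the submitters' processing notes name GCRMA, with no version in the sources used here. That method models background from probe sequence, aligns the distributions of the arrays and merges probes into probe sets, so a shift common to most transcripts is lost. Arrays have no read depth, and their number limits the precision.

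Values were used as deposited. The members and lists were chosen with earlier results of these data known. Of 24029 probe sets without the AFFX prefix, 12603 that passed log2 4 on 2 or more arrays were tested, VH8-4602 minus Guazuncho 2, by lmFit and eBayes of limma 3.58.1 (R 4.3.3) without covariates, at 2 residual and 2.56 prior degrees of freedom. The fit was tested on simulated data. All 226 members passed the filter. Gene lists and tissue markers could not be filled, since no table pairs probe sets with genes. Named members were those with the 2 highest means, the lowest mean, the 2 widest and 2 narrowest differences, the widest replicate gap, members past the test (up to 2 per direction), and probe sets at the limits. Alternatives covered filters, normalizations, limma's variance model, each array left out and the limits of the rule. Plots were made by matplotlib 3.10.9 in Python 3.11.15.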

Additional observations from a re-analysis of the deposited data

How the results depend on the processing

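The number of probe sets in the shared bright set was 127 with all hybridization controls set equal, 367 with a level of 13, 138 with a level of 14 and 35 with plain _at probe sets alone; the last 3 widen or narrow the rule by construction. It ran from 217 (without VH8-4602 replicate 1) to 236 (without VH8-4602 replicate 2), and was 183 with the bright controls set equal, which was added after seeing the data. The number of members past limma's test, 1 as reported, was 22 when no filter was set, 8 when the filter stood at log2 6, 7 with quantile normalization and 13 with median centring (all higher in VH8-4602), 41 with all controls set equal (all lower), 55 with an intensity trend, 10 with no moderation, 0 with a robust prior and 0 at an adjusted p under 0.01. It was 0 without any 1 array, where 0 (without Guazuncho 2 replicate 1) to 9 (without VH8-4602 replicate 1) passed at an unadjusted p under 0.05, against 17 with all arrays and 17 with a robust prior; the lone array was assumed to vary like the other genotype. The cause was not tested. In the same settings, 4880 of 24029 probe sets passed with no filter and 5750 of 12603 with a robust prior. With the filter at log2 6, 5449 passed of a smaller number tested, which is not given here. Quantile normalization gave 5801, median centring 6147, all controls set equal 5641 and an intensity trend 6350. Over all probe sets, 5791 passed as reported, 1875 with no moderation, 3278 at an adjusted p under 0.01, and 3826 (without VH8-4602 replicate 2) to 4278 (without Guazuncho 2 replicate 2) with an array left out. The median replicate gap moved by less than its spread among members in each of the 4 alternatives run. No paired analysis was possible because the replicate numbers only name the arrays and the labels' own numbers are not shared between genotypes.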
